A study of Homo sapiens with 16 samples.

Results

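Aminoacyl-tRNA synthetases were followed through an RNA-seq experiment in HCT116, an established human colorectal carcinoma line. The 35 genes examined were 19 that encode cytosolic enzymes and 16 that encode mitochondrial enzymes, taken by name from the 33937 genes of the count table. The rule for membership used the known function of each gene and no measured value, but the family itself was chosen with earlier results of these data known. The cells carried a doxycycline-inducible short hairpin RNA, either a scrambled control (SCR) or one directed against *NAA40*, the gene of an N-terminal acetyltransferase that acts on histones H4 and H2A. Both lines, SCR and NAA40-KD, were labelled either (−dox) or (+dox), which gave 4 groups of 4 libraries, grown with doxycycline (dox) at 1 μg/ml for 96 h where the labels say so and without it otherwise. Every library therefore carried a hairpin construct, and the labels name no second knockdown line. Total counts per library lay between 11065606 and 13855486.

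Most synthetases join a single amino acid to its cognate tRNAs, so that the ribosome receives correctly charged tRNAs. The nucleus encodes separate sets of enzymes for the cytosol and for the mitochondrial matrix, although *GARS1* and *KARS1* each supply both compartments. Several cytosolic enzymes sit in the multi-synthetase complex together with the scaffold proteins AIMP1, AIMP2 and EEF1E1, and the remainder act outside it. Many cytosolic synthetase genes are known targets of ATF4, the transcription factor at the centre of the integrated stress response, which binds composite C/EBP-ATF elements (CARE).

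*NAA40* itself was measured first. Its mean level was 30.3 ± 1.58 CPM (normalized counts scaled to library size; SD, n = 4) in NAA40-KD (+dox) as labelled and 27.3 ± 1.45 in those labelled SCR (+dox), which is 111% of the control (exact two-sided permutation test, p = 0.0571). In the libraries labelled (−dox) it was 11.8 ± 1.93 CPM in the NAA40-KD line against 29.4 ± 3.62 in SCR, or 40.2%. The same exact test gave p = 0.0286 there, and 4 libraries against 4 allow no smaller value. The hairpin target was therefore low in the knockdown libraries labelled untreated and was not low in those labelled treated, which goes against the labels. Groups follow the treatment label. The short sample names say Dox for the libraries labelled treated and wDox for the others, which can be read either way, and whether the dox labels were exchanged was not tested. All groups are called by their labels below, every direction given is a direction between labelled groups, and none can be read as an effect of doxycycline or of *NAA40* loss. Replicate 4 of NAA40-KD (−dox) also stood apart, with an SD of 0.69 for its log2 deviations from the group mean across genes against 0.17 to 0.30 in the other 15 libraries. Counts of called members that use it are given with and without it, and other values include it unless stated. The log2 fold change of *NAA40* in NAA40-KD (−dox) against SCR (−dox) was −1.31 with it and −1.40 without it. The epithelial markers *EPCAM*, *CDH1*, *KRT8*, *KRT18* and *KRT19* passed the expression filter, and of 7 markers of blood, stroma, endothelium and liver only *COL1A1* did.

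The promoter sequences are shown first because a single short motif recurs among the cytosolic genes. RefSeq windows of the build GRCh38.p14, from 250 bases before to 50 bases after the annotated transcription start, were found for 30 of the 35 genes, and none was matched for *LARS1*, *VARS1*, *YARS1*, *AARS2* or *VARS2*. The CARE core TGATGNAA, searched on both strands, was present in 6 of 16 cytosolic promoters (37.5%) and in 1 of 14 mitochondrial ones, that of *YARS2*. It was present in 3.67% of all 27305 promoters of the same length. In all 6 cytosolic genes the match read TGATGCAA or its reverse complement TTGCATCA, and in 5 of them its first base lay between 13 bases before and 15 bases after the start. The 6 stretches of 100 bases that hold the match are shown 5′ to 3′ on the strand of the gene, with the match in capitals. For all but *AARS1* the stretch ends 30 bases into the first exon.
AARS1: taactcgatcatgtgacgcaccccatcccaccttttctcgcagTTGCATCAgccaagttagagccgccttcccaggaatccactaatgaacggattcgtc
CARS1: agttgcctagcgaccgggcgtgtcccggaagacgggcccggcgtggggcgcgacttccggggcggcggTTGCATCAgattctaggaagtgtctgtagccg
IARS1: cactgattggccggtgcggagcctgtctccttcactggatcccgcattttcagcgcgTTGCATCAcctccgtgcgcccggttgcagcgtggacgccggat
MARS1: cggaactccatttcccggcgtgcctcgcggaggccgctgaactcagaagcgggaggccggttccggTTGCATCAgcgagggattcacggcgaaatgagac
NARS1: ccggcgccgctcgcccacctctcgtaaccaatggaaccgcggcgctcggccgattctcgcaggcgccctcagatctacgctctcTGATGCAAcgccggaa
TARS1: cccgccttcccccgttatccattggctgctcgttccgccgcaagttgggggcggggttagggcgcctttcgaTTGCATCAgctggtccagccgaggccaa

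In GRCh38.p14 these stretches lie at chr16:70289637-70289736 on the minus strand for *AARS1*, chr11:3057394-3057493 on the minus strand for *CARS1* and chr9:92293668-92293767 on the minus strand for *IARS1*. They lie at chr12:57487998-57488097 on the plus strand for *MARS1*, chr18:57621807-57621906 on the minus strand for *NARS1* and chr5:33440895-33440994 on the plus strand for *TARS1*. A match describes the letters in the window and does not show that a factor binds there, and the absence of a match says only that these letters are not in this window. The E-box CACGTG was in 1 of 16 cytosolic and 3 of 14 mitochondrial promoters (7.43% of all promoters), the NRF1 core (GCGC, any base, then TGCGC) in 3 of 16 and 3 of 14 (6.28%), and the interferon-stimulated response element core (GAAA, any 2 bases, then GAAA) in 0 of 16 and 1 of 14 (3.65%).

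Gene levels were compared per kilobase of annotated exon in the 8 SCR libraries. The cytosolic genes ran from 11.1 CPM per kb for *HARS1* to 136 for *AARS1* (median 46.8), and the mitochondrial genes ran from 0.546 for *SARS2* to 51.5 for *IARS2* (median 6.07). *AARS1*, the alanyl-tRNA synthetase gene, led at 136 ± 26.4 CPM per kb (SD, n = 8), followed by *GARS1* for glycine at 99.5 ± 10.4 and *IARS1* for isoleucine at 75.7 ± 4.99. *IARS2*, the mitochondrial isoleucyl enzyme, was at 51.5 ± 5.47 and so ranked among the cytosolic genes, as did *RARS2* for arginine at 19.3 ± 1.55. The ranges of neighbours in this order overlapped for 29 of 34 adjacent pairs, so that single ranks are not resolved. *SARS2* was covered by only 17 to 28 counts per SCR library, and it shares 1492 of its 3231 exon bases with the gene AC011455.2 on the same strand, so its values are uncertain.

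**Figure D1:**
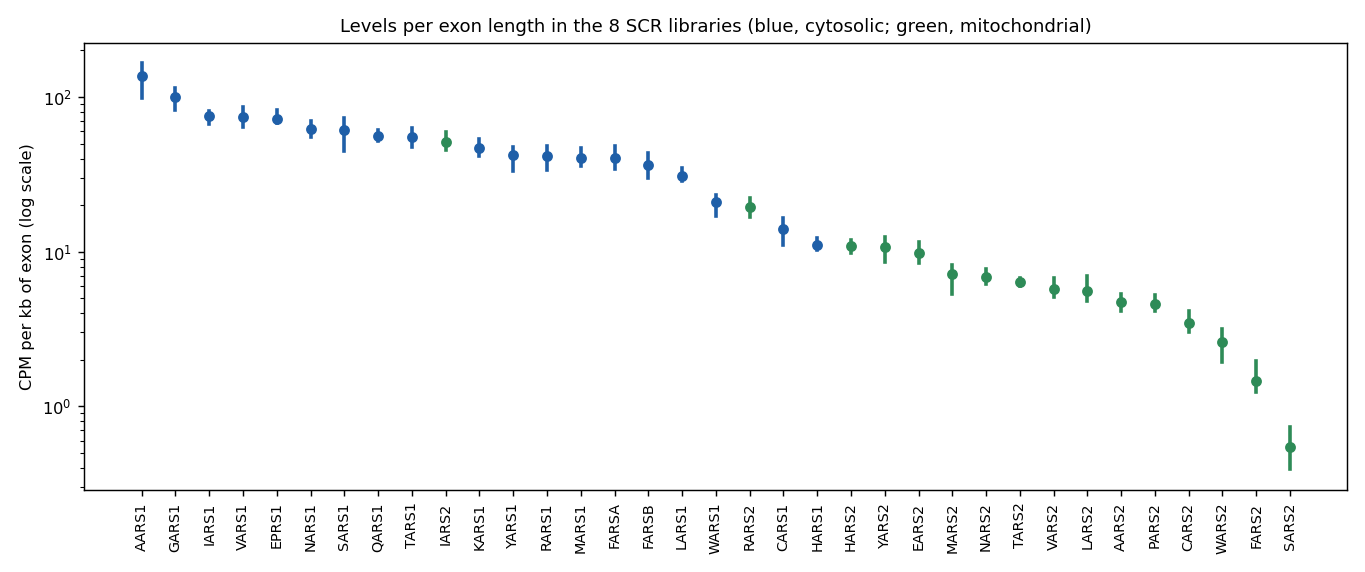
Level of each synthetase gene in the 8 SCR libraries, in CPM per kb of annotated exon on a log axis. Points are means and bars run from the lowest to the highest library. Cytosolic genes (blue) fill the upper part of the order and mitochondrial genes (green) the lower part, with *IARS2* and *RARS2* standing among the cytosolic genes.

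The comparison of NAA40-KD (+dox) with SCR (+dox) asks how the knockdown line differed from its control among the libraries labelled as treated. Cytosolic synthetase transcripts were lower in the libraries labelled NAA40-KD (+dox) for 9 genes, and 3 mitochondrial ones were called higher. Of 19 cytosolic members, 9 were called lower and 0 higher (quasi-likelihood test in edgeR, Benjamini-Hochberg adjusted p under 0.05). In the same fit 24.5% of 13869 genes were called, 13.7% lower and 10.9% higher. Of 16 mitochondrial members, 3 were called higher and 0 lower. This is a smaller share than the 24.5% called over all genes, though a larger one than the 10.9% called higher. The count of 3 is not read as a result about the mitochondrial members. The median log2 fold change was −0.21 over the cytosolic members and 0.18 over the mitochondrial members, against 0.00 over all genes tested. The groups did not overlap for 12 cytosolic members that were lower and 3 that were higher, and for 7 mitochondrial members that were higher, against 13.9% of all genes lower and 13.2% higher. No member passed an absolute log2 fold change of 1, the size the study's methods require of a differentially expressed gene.

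*AARS1* (ENSG00000090861, chr16:70252295-70289543, minus strand) had 650, 703, 605 and 718 CPM in the libraries labelled SCR (+dox) and 383, 406, 380 and 382 CPM in those labelled NAA40-KD (+dox). All 4 knockdown libraries lay below all 4 controls, a log2 difference of −0.79 (SE 0.084, edgeR adjusted p = 3.3e-06). *SARS1* (ENSG00000031698, chr1:109213918-109238169, plus strand), which encodes the seryl enzyme, had 251, 264, 247 and 263 CPM in SCR (+dox) and 145, 148, 153 and 146 CPM in NAA40-KD (+dox). The groups did not overlap, and the log2 fold change was again −0.79 (SE 0.078, edgeR adjusted p = 1.35e-06), which left the knockdown group at 57.7% of the control. *GARS1* (ENSG00000106105, chr7:30594681-30634033, plus strand) had 459, 408, 476 and 434 CPM in SCR (+dox) and 261, 264, 285 and 288 CPM in NAA40-KD (+dox). It fell by 0.69 on the log2 scale (SE 0.083, edgeR adjusted p = 1.15e-05), again without overlap between the groups.

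Changes of intermediate size were found for the genes of the cysteinyl, tryptophanyl, tyrosyl and threonyl enzymes. *CARS1* had 142, 143, 158 and 167 CPM in SCR (+dox) and 97.2, 95.4, 108 and 111 CPM in NAA40-KD (+dox), a log2 fold change of −0.57 (SE 0.089). *WARS1*, which interferon is known to induce, had 135, 137, 140 and 149 CPM in SCR (+dox) and 94, 91.9, 97 and 97.9 CPM in NAA40-KD (+dox), a log2 fold change of −0.56 (SE 0.08). Both genes were separated completely between the groups. *YARS1* had 366, 351, 374 and 389 CPM in SCR (+dox) and 259, 253, 275 and 282 CPM in NAA40-KD (+dox), a log2 fold change of −0.47 (SE 0.08). *TARS1* had 354, 301, 360 and 317 CPM in SCR (+dox) and 236, 246, 261 and 250 CPM in NAA40-KD (+dox), a log2 fold change of −0.42 (SE 0.085). The adjusted p of these 4 genes ranged from 7.2e-05 for *WARS1* to 0.00159 for *TARS1* in edgeR, and none of their groups overlapped.

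The 2 remaining genes called lower belong to the multi-synthetase complex. *MARS1*, the methionyl enzyme, had 282, 288, 297 and 327 CPM in SCR (+dox) and 221, 228, 253 and 254 CPM in NAA40-KD (+dox), lower by a log2 fold change of −0.32 (SE 0.086, edgeR adjusted p = 0.0105). Its exons share 874 bases on the opposite strand with *ARHGAP9* and *DDIT3*, and how featureCounts treated strand is not given in the sources used here. Among the genes called in this comparison *WARS1* (672 bases), *YARS1* (396), *EARS2* (370), *CARS1* (281) and *GARS1* (99) have opposite-strand overlaps too. *IARS1* had 598, 589, 528 and 575 CPM in SCR (+dox) and 456, 488, 519 and 486 CPM in NAA40-KD (+dox), lower by a log2 fold change of −0.23 (SE 0.082, edgeR adjusted p = 0.0455). Its groups were the closest of the 9, with the highest knockdown library just below the lowest control. The calls of *AARS1*, *SARS1*, *GARS1*, *CARS1*, *WARS1*, *YARS1* and *TARS1* held whichever of the 8 libraries was left out. The call of *MARS1* was lost without NAA40-KD (+dox) replicate 1 (edgeR adjusted p = 0.0582), and that of *IARS1* held in 2 of 8. In a fit over all 16 libraries *TARS1*, *MARS1* and *IARS1* kept their direction but were not called (edgeR adjusted p = 0.126, 0.126 and 0.293). *IARS1* was not called with library-size scaling or with no filter on low counts either (edgeR adjusted p = 0.0648 and 0.103).

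**Figure D2:**
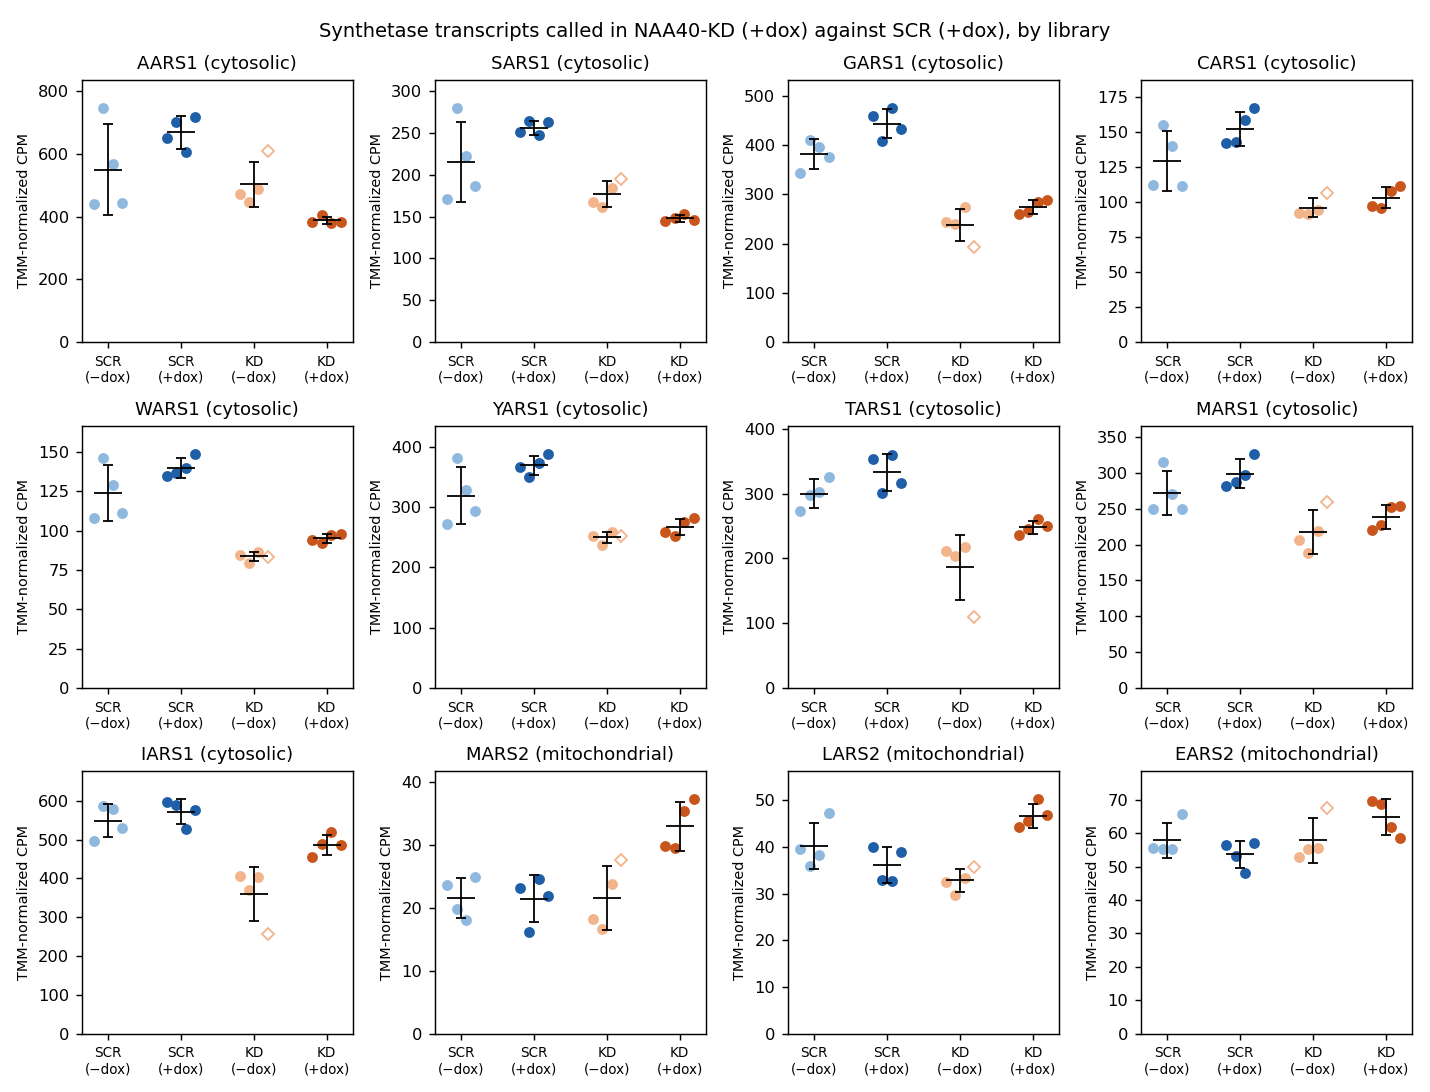
TMM-normalized CPM by library for the 9 cytosolic and 3 mitochondrial genes called between NAA40-KD (+dox) and SCR (+dox). Points are libraries, the open diamond is NAA40-KD (−dox) replicate 4, and bars are the mean ± SD of 4 libraries. Each axis starts at 0, and in every panel the NAA40-KD (+dox) libraries are separated from the SCR (+dox) libraries.

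The cytosolic members were also counted by their place in the complex and by class. Of the 12 enzymes outside the complex 7 were called lower, with a median log2 fold change of −0.45, whereas 2 of the 7 complex enzymes were, with a median of −0.01. The other 5 complex members, *QARS1*, *EPRS1*, *RARS1*, *KARS1* and *LARS1*, had log2 fold changes between −0.19 and 0.21 and were not called. By the class of the catalytic domain, 5 of 10 class I and 4 of 9 class II members were called lower, each class with a median of −0.21. Here *EPRS1* was counted under class I only. *FARSA* and *FARSB*, the subunits of the phenylalanyl enzyme, had log2 fold changes of 0.00 and 0.23 and were not called, and neither was *VARS1*, the valyl enzyme, at −0.01. None of the 3 scaffold genes was called. The difference between the complex members and the rest was not tested.

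Among the mitochondrial members *MARS2*, the methionyl enzyme, changed most. It had 23.2, 16.2, 24.7 and 21.9 CPM in SCR (+dox) and 29.9, 29.5, 35.4 and 37.3 CPM in NAA40-KD (+dox), higher by a log2 fold change of 0.62 (SE 0.13, edgeR adjusted p = 0.0019). *LARS2*, the leucyl enzyme, had 40, 33, 32.7 and 39 CPM in SCR (+dox) and 44.4, 45.5, 50.2 and 46.9 CPM in NAA40-KD (+dox), higher by a log2 fold change of 0.37 (SE 0.099, edgeR adjusted p = 0.011). Both calls held whichever library was left out, but that of *LARS2* was lost in the fit over all 16 libraries (edgeR adjusted p = 0.0837). *EARS2* for glutamate, whose product also feeds the amidotransferase route to glutaminyl-tRNA, had 56.4, 53.1, 48.1 and 56.9 CPM in SCR (+dox) and 69.7, 68.7, 61.9 and 58.6 CPM in NAA40-KD (+dox). It was higher by 0.27 on the log2 scale (SE 0.094, edgeR adjusted p = 0.043), and the call held in 3 of 8 leave-one-out fits. It was also lost with upper-quartile scaling, with no filter and in the fit over all 16 libraries. The other 13 mitochondrial members ranged from −0.11 for *HARS2* to 0.48 for *SARS2* and were not called. For methionine the cytosolic gene *MARS1* was called lower and the mitochondrial gene *MARS2* higher, and for leucine *LARS1* was not called and *LARS2* was called higher.

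*MARS2* and *EARS2* were 2 of the 3 mitochondrial genes with an E-box in the promoter window. The third, *CARS2*, was not called (log2 fold change 0.06, edgeR adjusted p = 0.747), and the window of *LARS2*, which was called higher, held no E-box. The 1 cytosolic gene with an E-box, *IARS1*, was called lower. Whether the E-box has a part in these calls was not tested. The stretches of 100 bases around the start are shown on the strand of the gene, with the E-box in capitals, at chr2:197705299-197705398 on the plus strand for *MARS2* and chr16:23557321-23557420 on the minus strand for *EARS2* (GRCh38.p14).
MARS2: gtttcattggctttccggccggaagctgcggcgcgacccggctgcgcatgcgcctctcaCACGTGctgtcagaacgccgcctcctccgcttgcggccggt
EARS2: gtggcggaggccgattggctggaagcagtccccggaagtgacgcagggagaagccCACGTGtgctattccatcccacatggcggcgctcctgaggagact

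The CARE matches can be read beside these calls. Of the 6 cytosolic genes with the match 5 were called lower, namely *AARS1*, *CARS1*, *IARS1*, *MARS1* and *TARS1*, with a median log2 fold change of −0.37 over the 6. Of the 10 cytosolic genes whose window held no match 3 were called lower, namely *GARS1*, *SARS1* and *WARS1*, with a median of −0.10. *YARS1*, also called lower, had no window and is in neither count. Over all genes tested 13.7% were called lower. *NARS1*, the sixth gene with the match, had a log2 fold change of −0.17 and was not called (edgeR adjusted p = 0.126). In the libraries labelled (−dox), 0 of the 6 genes with the match and 1 of the 10 without it were called lower with all 8 libraries, and 5 of 6 and 4 of 10 without NAA40-KD (−dox) replicate 4. The share of all genes called lower there also rose, from 3.54% with all 8 libraries to 19.4% without replicate 4. No test of the motif was made, because the genes were chosen with results of these data known.

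Genes that work beside the synthetases moved little in the same comparison, and stress-response genes moved more. None of the 9 mitochondrial translation factors, the 4 genes of the mitochondrial amidotransferase and formyltransferase or the 4 measured cytosolic elongation factors was called. Of 5 genes for tRNA editing and end processing, *ELAC2*, a tRNA 3′ processing enzyme, was called higher and *DTD1*, a deacylase of mischarged D-amino acids, was called lower. Of 17 measured genes of the integrated stress response 12 were called lower and 3 higher, and 9 of the 12 passed a log2 fold change of −1. Over all genes tested 13.7% were called lower and 10.9% higher. *ATF4* had a log2 fold change of −0.73 (SE 0.11) and its target *ASNS*, the asparagine synthetase gene, one of −1.48 (SE 0.15). The 3 called higher encode eIF2α kinases, among them *EIF2AK4*, the kinase that senses uncharged tRNA, at 0.47 (SE 0.08). Of 11 interferon-response genes 2 were called lower and 1 higher. Whether the stress-response genes have a part in the synthetase differences was not tested.

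The libraries labelled (−dox) give a second comparison of the same lines with no library in common. With all 8 libraries, *GARS1* was the 1 cytosolic member called, and it was lower (log2 fold change −0.67, SE 0.14, edgeR adjusted p = 0.0255). It had 343, 411, 397 and 377 CPM in SCR (−dox) and 245, 239, 275 and 194 CPM in NAA40-KD (−dox). The 1 mitochondrial member called was *SARS2*, at 28, 26, 27 and 21 counts in SCR (−dox) and 14, 13, 7 and 13 counts in NAA40-KD (−dox). This was a log2 fold change of −1.19 (SE 0.29, edgeR adjusted p = 0.0387) on few counts in a gene that overlaps another. The fit called 6.42% of the genes tested, 3.54% lower and 2.88% higher. The call of *GARS1* held only without NAA40-KD (−dox) replicate 3 or replicate 4 among the 8 leave-one-out fits, and that of *SARS2* only without replicate 4.

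Without NAA40-KD (−dox) replicate 4 the same comparison called 36.5% of genes, 19.4% lower and 17.1% higher. Of 19 cytosolic members 10 were then lower and 5 higher. The lower ones were *GARS1* (−0.60), *WARS1* (−0.57), *TARS1* (−0.51), *CARS1* (−0.49), *IARS1* (−0.48), *NARS1* for asparagine (−0.44), *MARS1* (−0.42), *FARSA* (−0.39), *YARS1* (−0.36) and *HARS1* for histidine (−0.31). Of these, 7 were also among the 9 called lower in the libraries labelled (+dox), which is 7 of 9 of one list and 7 of 10 of the other. The same overlap was not counted over all genes. Both comparisons are between the same lines, so the overlap is not read as particular to these members. *AARS1* and *SARS1*, the genes that fell most in the libraries labelled (+dox), were not called here, at −0.24 (SE 0.15) and −0.34 (SE 0.14). Their SCR (−dox) libraries were spread widely, with *AARS1* at 442, 747, 568 and 444 CPM and *SARS1* at 171, 280, 222 and 187 CPM. Over the 9 genes, SCR (−dox) replicate 2 was the highest of its group for 8 and replicate 1 the lowest for 7, so that these genes differed together between control libraries. The same order was not counted for the other members or over all genes, so it is not read as particular to these 9.

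The 5 cytosolic members called higher without replicate 4 all belong to the multi-synthetase complex. *RARS1*, the arginyl enzyme, had 147, 116, 143 and 157 CPM in SCR (−dox) and 220, 225 and 235 CPM in NAA40-KD (−dox) replicates 1 to 3, whereas replicate 4 had 92.8 CPM. Its log2 fold change without replicate 4 was 0.68 (SE 0.098, edgeR adjusted p = 8.59e-05), and with it 0.46 (SE 0.27, edgeR adjusted p = 0.336). *LARS1* (0.30), *KARS1* (0.26), *EPRS1* (0.24) and *QARS1* (0.24) made smaller rises. All 7 complex members were thus called, 5 higher and 2 lower, whereas of the 12 outside the complex 8 were lower and 0 higher. Among the mitochondrial members *RARS2* (0.49), *VARS2* (0.47), *TARS2* (0.45) and *NARS2* (0.33) were higher and *SARS2* (−1.29) and *LARS2* (−0.34) lower. *VARS2* shares 1858 of its 8448 exon bases with *GTF2H4* on the same strand, so its values are uncertain too. None of the 3 mitochondrial members called in the libraries labelled (+dox) was called in the same direction, and *LARS2* was called in the opposite one.

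The neighbouring, stress-response and interferon-response genes were counted in the libraries labelled (−dox) too. Of the 4 amidotransferase and formyltransferase genes 1 was called lower with all 8 libraries, and 3 without NAA40-KD (−dox) replicate 4. No scaffold, mitochondrial translation factor, cytosolic elongation factor or tRNA editing and end processing gene was called with all 8 libraries. Without replicate 4 these lists gave 1 lower, 2 lower and 1 higher, 1 lower, and 1 lower, in that order. Of the 17 stress-response genes 5 were called lower and 1 higher with all 8 libraries, and 10 lower and 4 higher without NAA40-KD (−dox) replicate 4. Over all genes 3.54% were called lower and 2.88% higher with all 8 libraries, and 19.4% and 17.1% without replicate 4. Of the 11 interferon-response genes 3 were called higher and 0 lower (median log2 fold change 0.76), and 7 higher and 0 lower without replicate 4 (median 0.92). The interaction of line and dox label was called for 4 of these 11, and for 6 without replicate 4, each with a lower line difference in the libraries labelled (+dox). Over all genes it was called for 9.22% with all 16 libraries (4.91% negative) and for 24.2% (12.3% negative) without replicate 4.

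**Figure D3:**
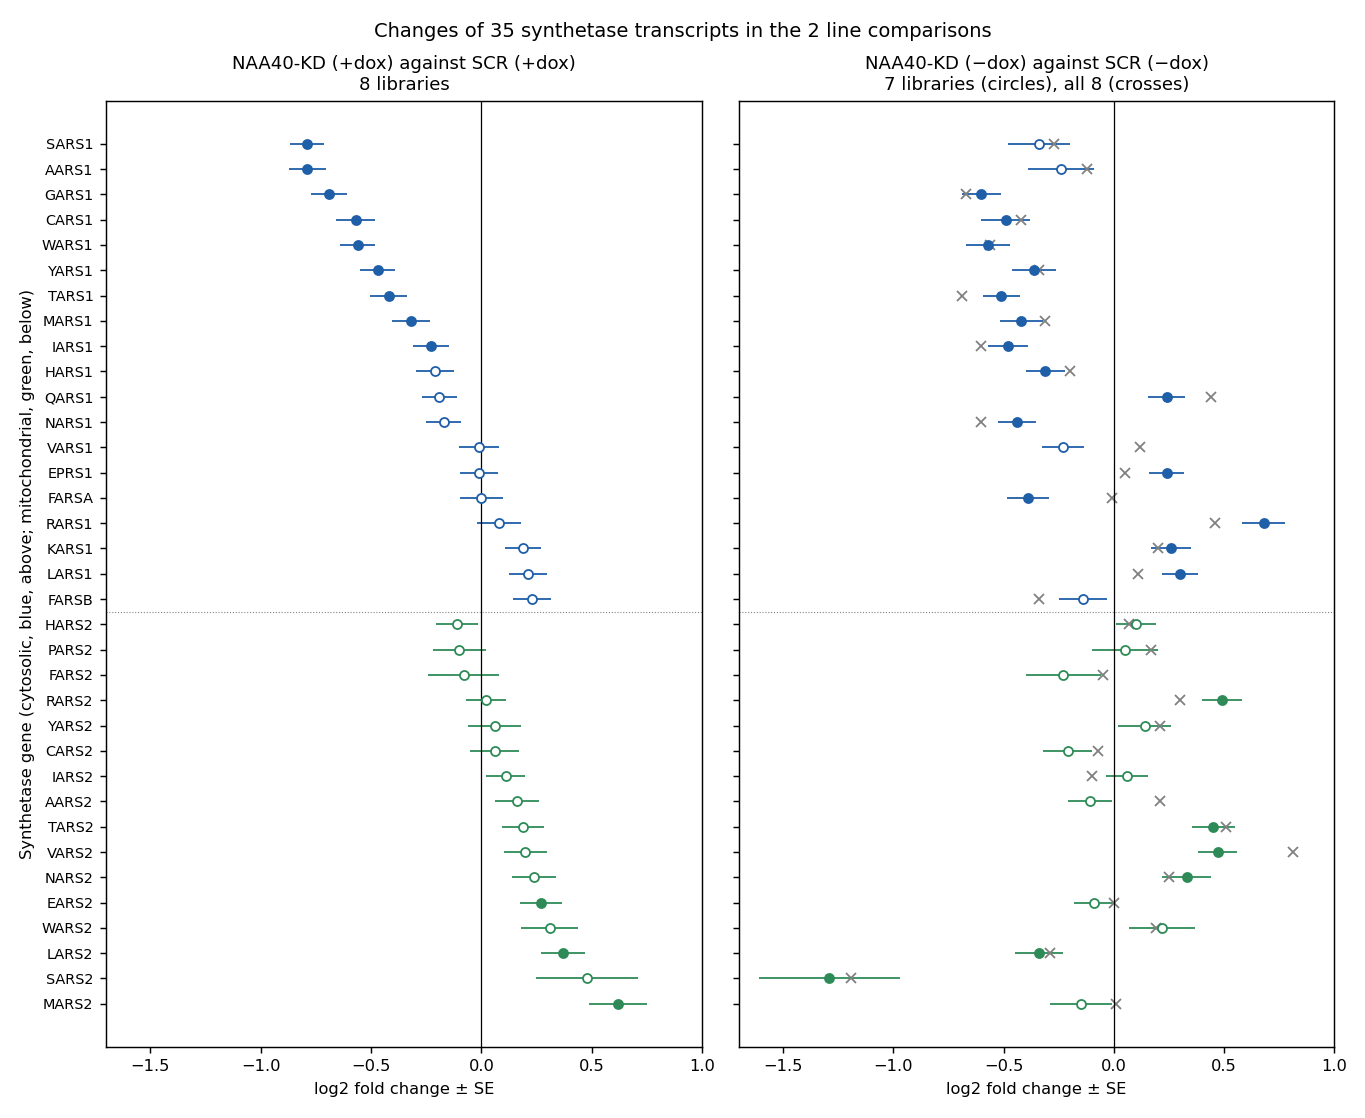
Log2 fold changes ± SE of the 35 genes, knockdown over SCR, in the libraries labelled (+dox) at left and (−dox) at right. Filled circles were called at an adjusted p under 0.05. The circles at right leave out NAA40-KD (−dox) replicate 4 and the crosses include it. Cytosolic genes are blue and above the dotted line, mitochondrial genes are green and below it.

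Replicate 4 differed from its group in a way that followed base composition. Its level lay outside the range of the other 3 libraries for 17 of 19 cytosolic members, 8 above and 9 below, and for 16 of 16 mitochondrial members, 11 above and 5 below. The ratio of replicate 4 to the mean of the other 3 ran from 0.409 for *RARS1* to 2.14 for *FARSA*. Across the 35 genes this ratio rose with the GC content of the longest annotated transcript (Spearman's rho 0.857, a description over genes measured in the same libraries), and the median GC content was 53.8% in the 19 genes above the range and 43.6% in the 14 below it. The 5 complex members that were higher without replicate 4 had GC contents of 41.4% (*RARS1*), 41.5% (*LARS1*), 43.2% (*EPRS1*), 46.6% (*KARS1*) and 55.2% (*QARS1*). The log2 fold changes themselves followed GC content less, with rho −0.135 in the libraries labelled (+dox) and −0.285 in those labelled (−dox) without replicate 4. The part of base composition in the calls was not tested.

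**Figure D4:**
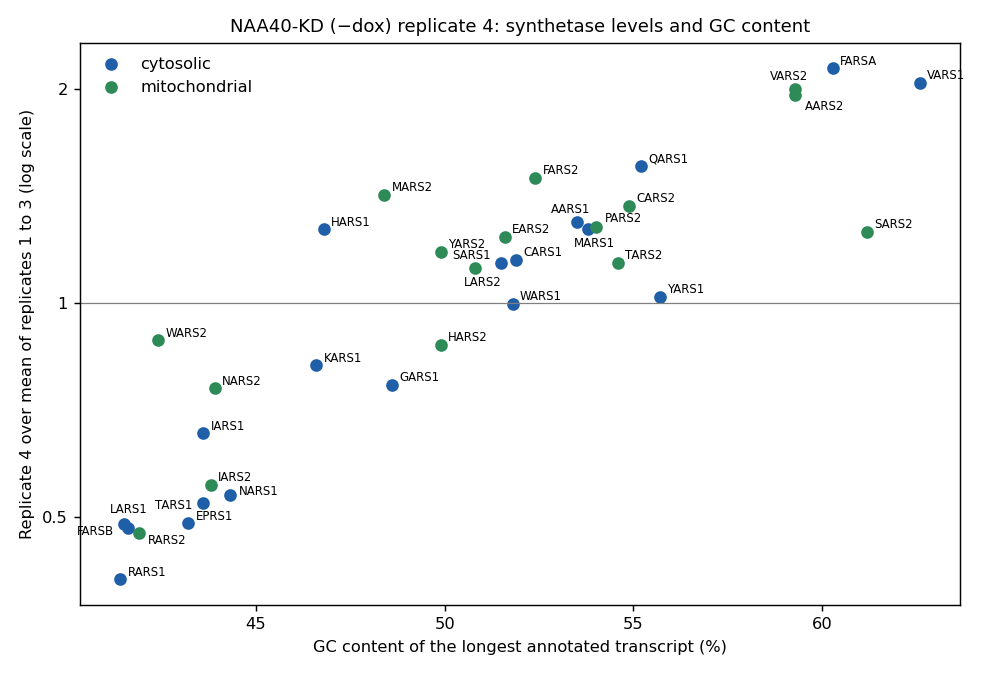
Level in NAA40-KD (−dox) replicate 4 divided by the mean of replicates 1 to 3 (log axis), against the GC content of the longest annotated transcript, for the 35 genes. Points are genes, cytosolic in blue and mitochondrial in green. The ratio runs from 0.409 at the lowest GC content to about the 2.14 of *FARSA* at the high end.

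Summed over genes, the balance of cytosolic to mitochondrial synthetase transcripts separated the lines under both labels. The sum over the 19 cytosolic members was 5581, 5365, 5512 and 5606 CPM in SCR (+dox) and 4401, 4530, 4680 and 4573 CPM in NAA40-KD (+dox). In the libraries labelled (−dox) it was 4670, 5526, 5086 and 4957 CPM in SCR and 4462, 4259, 4682 and 4372 CPM in NAA40-KD, where replicate 3 of the knockdown lay just above replicate 1 of the control. The sum over the 16 mitochondrial members was 621 ± 31.2 CPM in SCR (+dox), 690 ± 14.4 in NAA40-KD (+dox), 629 ± 40.7 in SCR (−dox) and 676 ± 24.5 in NAA40-KD (−dox) (SD, n = 4 each).

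The ratio of both sums was 8.55, 9.25, 8.68 and 9.09 in SCR (+dox) and 7.36, 9.49, 8.2 and 7.28 in SCR (−dox). It was 6.51, 6.67, 6.65 and 6.52 in NAA40-KD (+dox) and 6.54, 6.57, 6.63 and 6.55 in NAA40-KD (−dox). All 8 knockdown libraries, NAA40-KD (−dox) replicate 4 included, lay below all 8 controls, and the ranges of the knockdown groups overlapped. In that replicate the sums combine opposite shifts. Against the other replicates of its group 8 cytosolic members lay above and 9 below, and 11 mitochondrial members above and 5 below. No p is given for the ratio, because the genes were chosen with results of these data known.

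**Figure D5:**
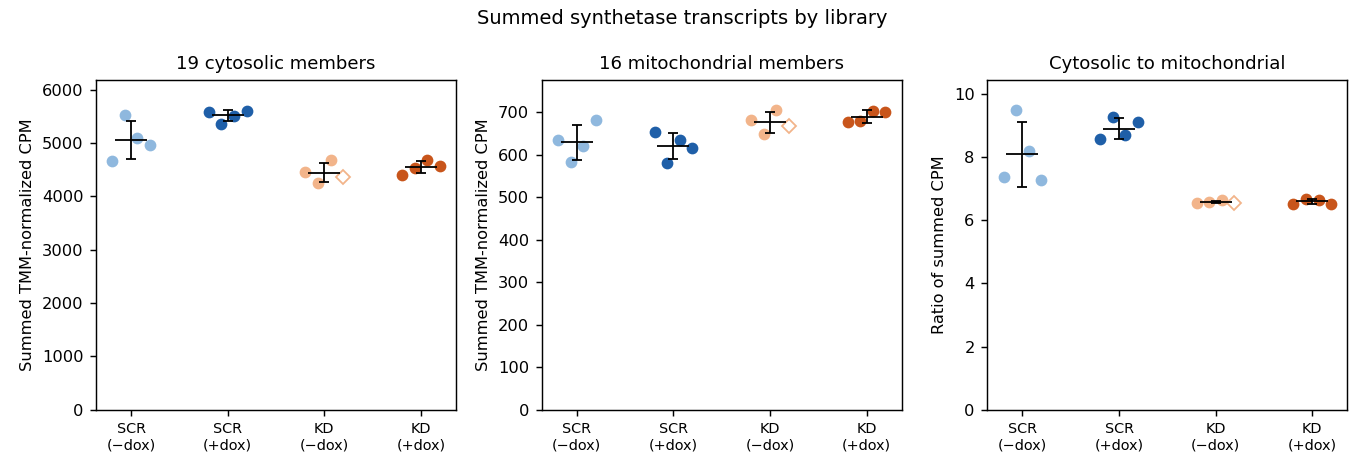
Summed TMM-normalized CPM of the 19 cytosolic and 16 mitochondrial genes, and the ratio of both sums, by library. Points are libraries, the open diamond is NAA40-KD (−dox) replicate 4, and bars are the mean ± SD of 4 libraries. In the ratio, the knockdown libraries sit between 6.51 and 6.67 and the SCR libraries between 7.28 and 9.49.

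Within a line, the dox labels were compared directly. In SCR (+dox) against SCR (−dox) 0 of the 35 members was called, as were 0 of 13882 genes (0%) by edgeR, DESeq2 and limma-voom, with 271 genes and 0 members at an unadjusted p under 0.05 in edgeR. The medians were 0.06 over cytosolic and 0.00 over mitochondrial members, and the log2 fold changes of cytosolic members ran from −0.06 for *FARSB* to 0.28 (SE 0.15) for *AARS1*. In NAA40-KD (+dox) against NAA40-KD (−dox), where 10.2% of genes were called (4.71% higher and 5.5% lower), no cytosolic member passed (5 at an unadjusted p under 0.05) and 2 mitochondrial members were higher. These were *LARS2* at 0.50 (SE 0.12, edgeR adjusted p = 0.0321) and *SARS2* at 1.15 (SE 0.26, edgeR adjusted p = 0.0239). *LARS2* had 32.6, 29.8, 33.3 and 35.8 CPM in NAA40-KD (−dox), all below the 44.4 CPM of the lowest NAA40-KD (+dox) library. Its call held in 1 of 8 leave-one-out fits, the one without NAA40-KD (−dox) replicate 4, and that of *SARS2* in 3 of 8. Without replicate 4, which moved the calls to 52.4% of genes (25.8% higher and 26.6% lower), 9 cytosolic members were higher and 6 lower, and 5 mitochondrial members were higher and 4 lower. *RARS1* then fell most among them (−0.60, SE 0.049) and *FARSA* rose most among the cytosolic members (0.41, SE 0.062).

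The interaction of line and dox label tests whether the difference between the lines depended on the label. It called 9.22% of genes with all 16 libraries (4.31% positive and 4.91% negative) and 24.2% (11.9% and 12.3%) without NAA40-KD (−dox) replicate 4. For *WARS1* the interaction was 0.01 (SE 0.15), for *GARS1* −0.01 (SE 0.16) and for *MARS1* 0.00 (SE 0.17), estimates near 0 whose errors leave room for a difference in either direction. The members called were *QARS1* at −0.62 (SE 0.19, adjusted p = 0.0498), *LARS2* at 0.66 (SE 0.17, adjusted p = 0.0192) and *SARS2* at 1.68 (SE 0.33, adjusted p = 0.00467), with p-values from edgeR. *QARS1* had 235, 233, 238 and 234 CPM in NAA40-KD (+dox) and 287, 297, 322 and 470 CPM in NAA40-KD (−dox), the last being replicate 4. Its call held in 3 of 16 leave-one-out fits, that of *LARS2* in 15 of 16 and that of *SARS2* in all 16. Without replicate 4 the cytosolic members called were *AARS1* (−0.56), *QARS1* (−0.44), *RARS1* (−0.61) and *SARS1* (−0.46), each with a lower line difference in the libraries labelled (+dox). Among the mitochondrial members *EARS2* (0.35), *LARS2* (0.70), *MARS2* (0.76) and *SARS2* (1.76) were then positive and *RARS2* (−0.49) negative.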

How the data were processed

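The deposited table holds raw counts for 33937 genes, made by the authors with STAR and featureCounts and not normalized. Its identifiers are all human Ensembl ones, although the methods give mm10, a mouse build. A stranded kit was used, and the strand setting of featureCounts is not given in the sources used here. From the deposited counts, edgeR 4.0.16 (R 4.3.3) gave TMM-normalized CPM and log2 fold changes (robust two-sided quasi-likelihood F tests, Benjamini-Hochberg adjustment over all genes tested), for genes with CPM above 1 in at least 4 libraries. All 35 synthetase genes passed this filter in each comparison. Each pair of groups was fitted on its own 8 libraries and the interaction on all 16, in place of the limma test the methods name. A gene was called at an adjusted p under 0.05. Each standard error was derived from the F statistic, as the fold change over its square root. Groups came from the sample labels, and the methods state independent RNA samples. Chi-square over degrees of freedom between replicates was 1.74 to 4.44 in NAA40-KD (+dox) and 2.43 to 7.16 among NAA40-KD (−dox) replicates 1 to 3. It was 8.61 to 40.5 within the SCR groups and 128 to 140 for pairs with NAA40-KD (−dox) replicate 4. Replicate 4 aside, the knockdown libraries were thus more alike than the controls, and each fit pooled the spread of its groups. Exon lengths, overlaps and gene coordinates came from GENCODE release 29 (GRCh38), promoters from RefSeq (GRCh38.p14). The code was tested on simulated data, with a pass criterion that was relaxed after a first run in which the interaction recovered fewer of the smaller changes than it required.

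The members and gene lists were chosen with earlier results of these data known. All 35 members could be named, with values by library for those called or past a log2 fold change of 1. Alternatives were DESeq2 1.42.0, limma-voom (limma 3.58.1), other scalings and filters, the replicate number as a block, a fit over all 16 libraries, stricter thresholds, and each library left out.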

Additional observations from a re-analysis of the deposited data

Results flagged for a closer look

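Single libraries stood apart from the other 3 of their group, by a gap past Dixon's 95% limit for 4 values, in 15 of 144 groups of 4 levels. Independent normal values would give about 1 in 20, but the genes share the same libraries, so this rate is only a rough guide. Of these, 10 were NAA40-KD (−dox) replicate 4. Its gap, as a share of the range, was 0.851 for *EPRS1*, 0.908 for *LARS1*, 0.895 for *RARS1*, 0.910 for *FARSB*, 0.861 for *TARS1* and 0.834 for *RARS2*, where it was low, and 0.892 for *FARSA*, 0.837 for *VARS1*, 0.949 for *AARS2* and 0.963 for *VARS2*, where it was high. The low genes had less GC than the high ones, as the plot of replicate 4 against GC content shows.

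The other 5 were spread over the groups, and whether they exceed what chance gives was not tested. *AARS1* was high in NAA40-KD (+dox) replicate 2 (0.899), *QARS1* in SCR (−dox) replicate 2 (0.843), *EARS2* in SCR (−dox) replicate 4 (0.956) and *FARS2* in SCR (+dox) replicate 3 (0.866), and *SARS2* was low in NAA40-KD (−dox) replicate 3 (0.855).

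The interaction of line and dox label was called for *QARS1* (−0.62), *LARS2* (0.66) and *SARS2* (1.68) on the log2 scale. These were 1 of 19 cytosolic and 2 of 16 mitochondrial members, where 9.22% of all genes tested were called. The call of *QARS1* was lost in most leave-one-out fits, and *SARS2* rests on few counts in a gene that overlaps another.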

How the results depend on the processing

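For the 35 genes over the 5 comparisons, 3042 values were recomputed under the alternatives. Of these, 2680 kept their direction and their side of the threshold, and 203 changed sign without being called under either setting (none above 0.24 in absolute log2 fold change with the reported settings). Another 86 passed the threshold newly, 72 no longer passed it and 1 changed sign with a call, *VARS1* in NAA40-KD (+dox) against NAA40-KD (−dox) (−0.09 with all 8 libraries, and from −0.23 to 0.24 with a library left out, the last without NAA40-KD (−dox) replicate 4). In NAA40-KD (+dox) against SCR (+dox) the 9 cytosolic calls became 0, and the 3 mitochondrial calls 0, with a log2 fold change above 1. The 3 mitochondrial calls became 1 in a fit over all 16 libraries and 1 at an adjusted p under 0.01. In NAA40-KD (−dox) against SCR (−dox) the 1 cytosolic call became 4 with DESeq2, 3 with limma-voom, 2 with library-size scaling, 2 with upper-quartile scaling and 8 in the fit over all 16 libraries. It became 0 with no filter, at an adjusted p under 0.01 and with a log2 fold change above 1, and 0 to 15 with a library left out. The 1 mitochondrial call became 3 with DESeq2, 3 in the fit over all 16 libraries, 0 with CPM above 1 in every library, 0 at an adjusted p under 0.01, and 0 to 6 with a library left out. In NAA40-KD (+dox) against NAA40-KD (−dox) the 0 cytosolic calls became 3 with DESeq2, 3 in the fit over all 16 libraries and 0 to 15 with a library left out. The 2 mitochondrial calls became 1 with no filter, 1 with CPM above 1 in every library, 1 with a log2 fold change above 1, 4 in the fit over all 16 libraries, 0 at an adjusted p under 0.01 and 0 to 9 with a library left out. For the interaction the 1 cytosolic call became 3 with DESeq2, 0 with library-size scaling, upper-quartile scaling, no filter, an adjusted p under 0.01 or a log2 fold change above 1, and 0 to 4 with a library left out. The 2 mitochondrial calls became 1 with no filter, with CPM above 1 in every library, at an adjusted p under 0.01 and with a log2 fold change above 1, and 1 to 5 with a library left out. The highest counts came without NAA40-KD (−dox) replicate 4. The interaction's mitochondrial median (−0.01) ranged from −0.05 to 0.08 with a library left out, and the *NAA40* level in the libraries labelled (+dox) from 109% to 113%. The fits over 16 libraries share one estimate of spread, and the other causes were not tested.

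Same-numbered libraries deviated together with correlations of −0.416 to 0.237, not all above 0.1 in any comparison, so the numbers were not taken to pair the samples. In NAA40-KD (+dox) against NAA40-KD (−dox), replicates 2, 3 and 4 each correlated best with their own number (0.206, 0.116 and 0.237) and replicate 1 did not (0.034), a hint from the data and not the design. With the replicate number as a block, the cytosolic calls were 10 in NAA40-KD (+dox) against SCR (+dox), and 0 in NAA40-KD (−dox) against SCR (−dox) and in the interaction. The mitochondrial calls under this block were 0 in NAA40-KD (−dox) against SCR (−dox) and 0 in NAA40-KD (+dox) against NAA40-KD (−dox). Depth limits *SARS2*, with 7 to 31 counts per library, more than any other member.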
